A study of Bos taurus with 20 samples.

Results

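The miRNAs of the DLK1-DIO3 imprinted locus were examined in small RNA libraries of bull spermatozoa. The members were taken from a list of 54 mature bovine miRNA names assigned to the maternally expressed part of this locus. Of these, 53 were among the 1029 mature miRNAs measured, and bta-miR-889 was not analysed here. The 20 libraries came from mature Holstein-Friesian bulls used in artificial insemination, with 1 library per bull. Their field fertility, estimated with an adjusted statistical model from records of services, was high in 10 bulls (HF) and low in 10 bulls (LF). The labels name no treatment of the bulls. For each bull, frozen-thawed semen from several ejaculates was pooled, cells other than spermatozoa were lysed with a detergent buffer, and total RNA was extracted. A library therefore represents an animal and not a single ejaculate. With 1 library per bull, the spread between libraries holds both differences between bulls and technical differences between libraries. The age of the bulls is not given beyond their being mature, and no batch is named in the labels.

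DLK1, RTL1 and DIO3 are protein-coding genes expressed from the paternal chromosome, whereas MEG3, an antisense transcript of RTL1, MEG8 and MEG9 are noncoding RNAs expressed from the maternal chromosome. Most of the miRNAs of the locus are cut from these long maternal transcripts, first by Drosha in the nucleus and then by Dicer, which leaves a duplex of a 5p and a 3p arm. Allele choice depends on a control region between DLK1 and MEG3 that carries DNA methylation on the paternal chromosome, a mark that is set in the male germ line. The miRNAs are best known from placenta, brain and muscle, and loss of the miR-379 to miR-410 cluster in mice impairs the adaptation of newborns to life outside the uterus.

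The values are TMM-normalized read counts on the scale of CPM, called normalized counts here. Between 103204 reads (HF replicate 17) and 3097581 reads (HF replicate 2) were counted on miRNAs per library, and 3 libraries had fewer than 500000 reads, namely HF replicate 17, LF replicate 11 and LF replicate 13. At 3 reads, the normalized count is 1.19 in the deepest and 27.6 in the shallowest library. Intervals and limits drawn from reads cover counting error only, since the libraries were amplified by PCR and no molecular identifiers are described. In these bulk samples, fewer cells of a type and less RNA per cell cannot be told apart.

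The spermatozoa contained miRNAs of the locus at low but measurable levels. Of the 53 members, 46 were read at least once in some bull (86.8%, against 71.0% of all miRNAs in the table), and 14 were read in every bull (26.4%, against 28.7%). The other 7, bta-miR-154a, bta-miR-409b, bta-miR-496, bta-miR-541, bta-miR-544a, bta-miR-544b and bta-miR-1193, had 0 reads among the 23350570 reads of all bulls, which allows a level of up to 0.128 CPM. All members together made up 0.122% ± 0.0396 (SD, n = 10) of the normalized counts in HF bulls, with a lowest value of 0.0733%, a median of 0.116% and a highest of 0.189%. In LF bulls they made up 0.140% ± 0.0803 (SD, n = 10), with a lowest value of 0.0619%, a median of 0.111% and a highest of 0.296%. The ranges overlapped, with LF replicates 4, 1 and 13 above every HF bull and LF replicate 11 below every HF bull, and the highest bull exceeded the lowest by 4.79 times. LF replicates 4 and 1 had the highest shares, at 0.296% and 0.245%, and LF replicate 11 and HF replicate 14 the lowest.

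**Figure D1:**
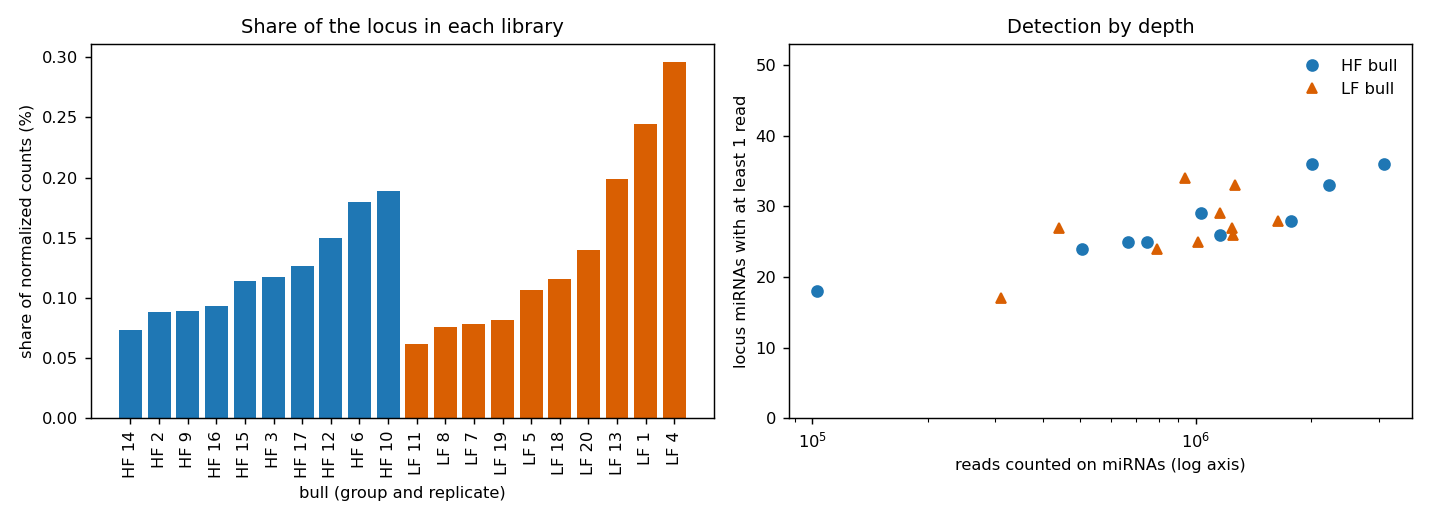
Left, the share of the DLK1-DIO3 miRNAs in the normalized counts of each library, in percent, with HF bulls in blue and LF bulls in orange, sorted within the group. Right, the number of the 53 members with at least 1 read against the reads counted per library on a log axis. The LF group holds both the lowest share, 0.0619%, and the highest, 0.296%, and the libraries with the fewest detected members, 17 and 18, are the 2 with the fewest reads.

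The number of members with at least 1 read ran from 17 to 36 per library, with a median of 27 in both groups. The lowest numbers belonged to LF replicate 11 with 310186 reads and HF replicate 17 with 103204 reads, and the highest, 36, to HF replicates 2 and 12 with 3097581 and 2003206 reads. For rare members, a difference between libraries in detection cannot be told from one in depth.

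A few members carried most of the signal. bta-miR-543 alone held 24.1% of the summed normalized counts of the locus, the 4 most abundant members 64.9% and the 10 most abundant 91.8%. bta-miR-543 had a mean of 317 ± 175 (SD, n = 20), which placed it at rank 101 of the 1029 miRNAs. It was followed by bta-miR-495 at 199 ± 142, bta-miR-323 at 172 ± 95.7 and bta-miR-411a at 165 ± 58.8. The fifth was bta-miR-369-3p at 103 ± 57.3. The means of neighbours from bta-miR-543 to bta-miR-411a differed by less than their SD over bulls. That SD leaves out that all members were measured in the same bulls, and their order within bulls was not tested. bta-miR-495 exceeded bta-miR-543 only in HF replicate 14 and LF replicate 18. bta-miR-410 (76.6 ± 57.5) and bta-miR-127 (72.0 ± 62.2) came next, with means closer than their SD, and then bta-miR-154c (39.3 ± 22.0), bta-miR-382 (32.9 ± 14.2) and bta-miR-381 (29.9 ± 15.9). Levels of different miRNAs were not corrected for how efficiently each one is ligated and amplified.

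Read along the locus, abundant miRNAs alternated with nearly silent ones. In the ARS-UCD2.0 annotation, 58 miRNA genes lie between MIR493 and MIR656, and 52 of the 53 members could be matched to one of them. That annotation was used for gene order only. The group that lies antisense to RTL1, with 7 members, held 8.43% of the summed level. Its most abundant member was bta-miR-127, which in mice is known, together with miR-136, to guide cleavage of the RTL1 transcript. bta-miR-136 had a mean of 21.2 ± 10.4, bta-miR-432 of 9.40 ± 6.45 and bta-miR-431 of 4.39 ± 4.50, while bta-miR-493, bta-miR-665 and bta-miR-433 stayed under 2. bta-miR-370, which lies alone between the groups, had a mean of 2.69 ± 2.54.

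The remaining 45 members, the miR-379 to miR-410 cluster, held 91.4% of the summed level. At its start, bta-miR-379 (18.5 ± 7.82) and bta-miR-411a are neighbours, followed by bta-miR-299, which had 6 reads in all bulls together. bta-miR-543, bta-miR-495 and bta-miR-154c lie next to each other, and the next 7 members in order, bta-miR-376e, bta-miR-376c, bta-miR-376d, bta-miR-654, bta-miR-376b, bta-miR-376a and bta-miR-1185, all had means between 0.112 and 0.611. The level rose again at bta-miR-381 and at bta-miR-382. The last genes with a member in this gene order, those of bta-miR-369-3p, bta-miR-410 and bta-miR-656 (14.8 ± 12.8), were again among the abundant ones. bta-miR-134, known in neurons as a regulator of dendritic spine size, was read in 15 bulls at a mean of 2.03 ± 1.67. Members of near-identical families, such as miR-376, miR-154, miR-329, miR-411 and miR-487, are uncertain, since reads can be split between copies, and so are bta-miR-382, bta-miR-299 and the bta-miR-409 pair, whose genes overlap another annotated miRNA gene or have a close copy beside them.

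**Figure D2:**
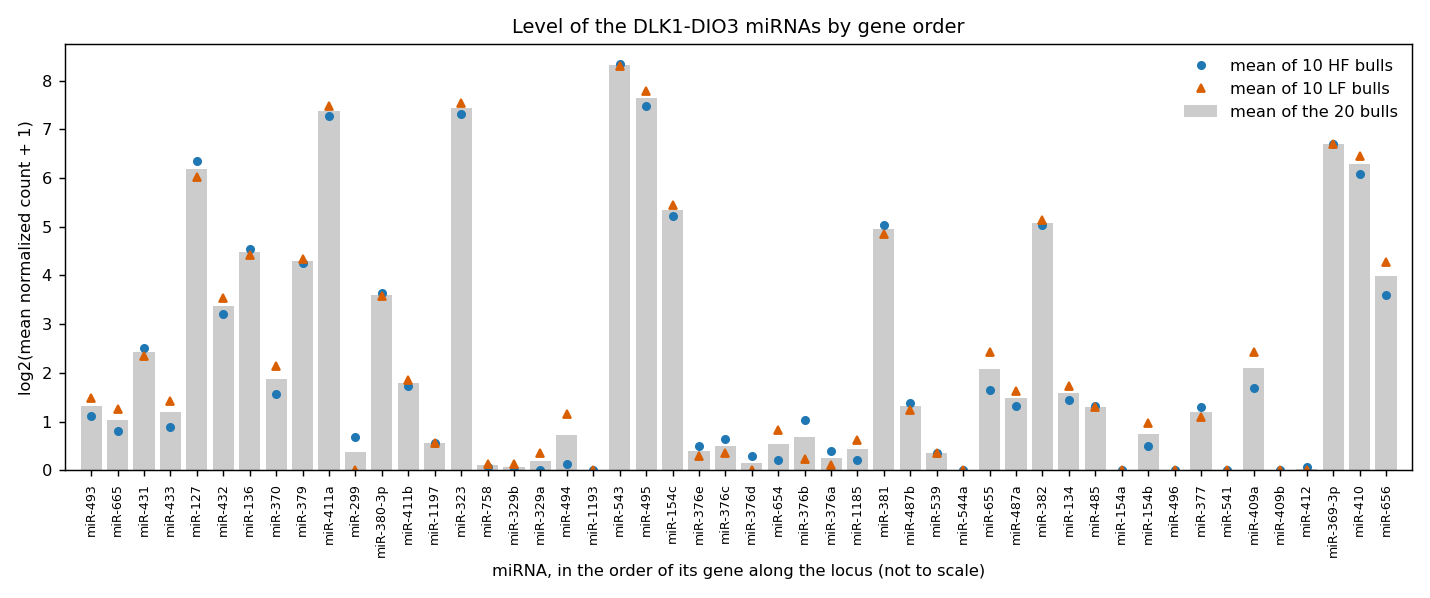
Mean level of the members as log2(mean normalized count + 1), in the order of their genes along the locus, with 1 miRNA per gene. Bars show the mean of the 20 bulls, blue circles the mean of 10 HF bulls and orange triangles the mean of 10 LF bulls. Tall bars stand beside bars near 0, as where bta-miR-154c, with a mean of 39.3, is followed by 7 members with means between 0.112 and 0.611.

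Both arms were listed for only a few hairpins. For miR-369, 2273 reads fell on the 3p arm and 4 on the 5p arm, a 5p share of 0.176% (exact Clopper-Pearson 95% interval 0.0479% to 0.449%). For miR-380, 235 reads fell on the 3p arm and 2 on the 5p arm, a 5p share of 0.844% (exact Clopper-Pearson 95% interval 0.102% to 3.01%). In both hairpins nearly all reads came from the 3p arm. The 4 reads of bta-miR-369-5p came from 3 bulls, and the 2 reads of bta-miR-380-5p from 1 bull.

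The comparison of HF with LF bulls asks whether sperm miRNA levels differ with field fertility. No member of the locus passed the test used. Once miRNAs that stayed under a normalized count of 1 in 10 or more bulls were removed, 23 members and 435 miRNAs in all were left. Of the 23, 0 passed the thresholds of an unadjusted p under 0.05 and a fold change over 1.5 (limma), with 9 of 435 miRNAs, 2.07%, past them in all. An unadjusted p under 0.05 was reached by 0 of the 23 members and 15 of the 435 miRNAs by limma, and the likelihood ratio test on the reads gave 1 member and 16 miRNAs. The lowest adjusted p of any member was 0.942 (limma, Benjamini-Hochberg over 435 miRNAs). The median log2 fold change of the 23 members, HF over LF, was -0.092, beside 0.0051 over all 435, with 15 members lower and 8 higher in HF bulls. In fits on the reads the median was -0.19 by the likelihood ratio test and by the quasi-likelihood test, with 17 of 23 members lower, and -0.23 by DESeq2, with 18 of 23 lower. In limma it was -0.14 in the bulls with at least 500000 reads, with 19 of 24 members lower, -0.057 over 46 members without the filter and -0.014 over the 14 members with at least 10 reads in at least 10 bulls. Of all 435 miRNAs, 49.9% were lower in HF bulls by limma. The likelihood ratio test, the quasi-likelihood test, DESeq2 and the deeper bulls gave 46.7%, 46.9%, 50.8% and 54.2% of all miRNAs. Their medians over all miRNAs were 0.023, 0.025, -0.012 and -0.020. The shift of the members was not tested. In limma, the median of the members changed sign on leaving out any of 4 single bulls, HF replicate 14, LF replicate 1, LF replicate 4 or LF replicate 20, with values without them of 0.0081, 0.049, 0.072 and 0.023. The other 30 members did not pass the filter, 23 of them with at most 8 reads in a library and 7 with none.

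The abundant members show how the groups lay. The normalized count of bta-miR-543 was 44.9, 282 and 581 (lowest, median and highest) in HF bulls and 127.02, 218 and 616 in LF bulls. The groups overlapped, with HF replicate 14 alone below every LF bull and LF replicates 1 and 4 above every HF bull. Its log2 fold change was -0.0096 (SE 0.38, 95% confidence interval -0.80 to 0.78, adjusted p = 0.988 by limma). A change of either sign within that interval cannot be told from none with these bulls.

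For bta-miR-495 the values were 61.6, 135 and 398 in HF bulls and 49.4, 160 and 489 in LF bulls, with a log2 fold change of -0.095 (95% confidence interval -0.94 to 0.75). For bta-miR-323 they were 54.8, 157 and 274 in HF bulls and 71.0, 146 and 497 in LF bulls, with a log2 fold change of -0.12 (95% confidence interval -0.74 to 0.49). In both, the highest bull was LF replicate 1. For bta-miR-495, LF replicates 4 and 13 also lay above every HF bull, and LF replicate 11 lay below every HF bull. For bta-miR-323, HF replicate 14 lay below every LF bull. bta-miR-411a varied least of the 4, with 107, 138 and 209 in HF bulls and 80.3, 169 and 298 in LF bulls, and a log2 fold change of -0.13 (95% confidence interval -0.59 to 0.34). The groups overlapped for all 3, and for bta-miR-411a LF replicates 1, 4 and 20 lay above every HF bull and LF replicate 11 below every HF bull.

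**Figure D3:**
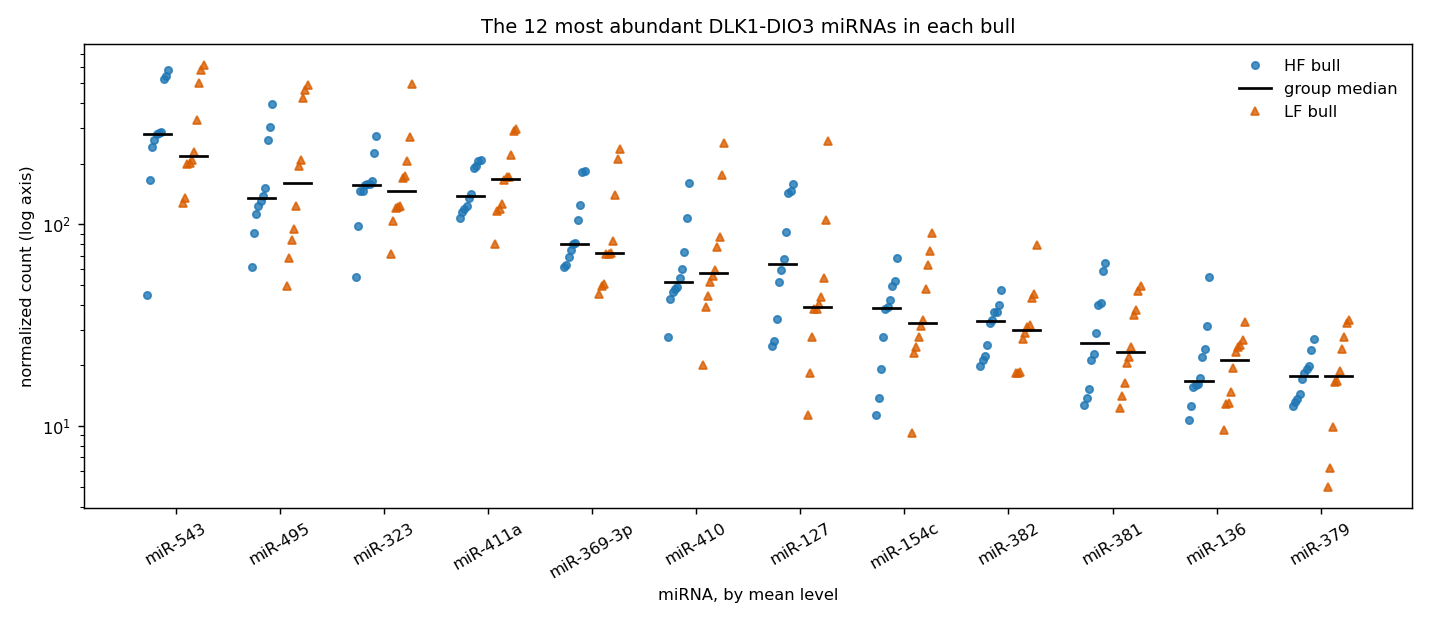
Normalized counts of the 12 most abundant members in each bull, on a log axis, with HF bulls as blue circles, LF bulls as orange triangles and a black line at the group median. Points of both groups overlap for all 12, and single bulls stand away from their group, as HF replicate 14 does at 44.9 for bta-miR-543 and LF replicate 4 at 259 for bta-miR-127.

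bta-miR-369-3p had values of 61.8, 80.3 and 184 in HF bulls and 45.1, 72.0 and 236 in LF bulls (log2 fold change 0.12, 95% confidence interval -0.51 to 0.75). bta-miR-410 had values of 27.6, 51.6 and 160 in HF bulls and 20.0, 57.6 and 253 in LF bulls (log2 fold change -0.18, 95% confidence interval -0.93 to 0.58). The highest value of both was that of LF replicate 4. The highest HF value of bta-miR-369-3p and the lowest of bta-miR-410 came from HF replicate 17, the shallowest library, where the latter rests on 3 reads.

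bta-miR-127 had the highest log2 fold change, HF over LF, of the 23 members by limma. Its values were 25.1, 63.5 and 158 in HF bulls and 11.4, 39.2 and 259 in LF bulls, and 7 of 10 HF bulls lay above the LF median. The highest value nevertheless belonged to an LF bull, LF replicate 4. The log2 fold change was 0.59 (SE 0.45, 95% confidence interval -0.34 to 1.51, unadjusted p = 0.203, adjusted p = 0.942 by limma). Without LF replicate 4 it was 0.87 with an unadjusted p of 0.038, past the thresholds, and an adjusted p of 0.96 (limma). In that fit bta-miR-127 was the only one of 23 members past them, with 9 of 442 miRNAs past them in all. On the reads the log2 fold change was smaller, at 0.30 in the likelihood ratio test, 0.27 in the quasi-likelihood test and 0.28 in DESeq2. In the latter pair of tests another member had a higher value. Of the other members antisense to RTL1, bta-miR-136 had a log2 fold change of 0.056, bta-miR-432 of -0.32 and bta-miR-431 of 0.31, each with an interval that spans 0.

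bta-miR-154c had values of 11.4, 38.5 and 68.0 in HF bulls and 9.27, 32.5 and 91.0 in LF bulls (log2 fold change -0.17). bta-miR-382 had 19.8, 33.1 and 47.5 in HF bulls and 18.4, 30.02 and 79.3 in LF bulls (log2 fold change -0.019). bta-miR-381 had 12.7, 25.9 and 64.3 in HF bulls and 12.3, 23.4 and 49.6 in LF bulls (log2 fold change 0.12). None of these differences exceeded the spread between bulls. bta-miR-380-3p was at 0 in 1 HF and 1 LF bull and reached 27.6 in HF replicate 17 and 25.8 in LF replicate 4, with a log2 fold change of 0.20 (95% confidence interval -1.04 to 1.45). The value in HF replicate 17, the shallowest library, rests on 3 reads, and that in LF replicate 4 on 26.

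bta-miR-655 had the lowest log2 fold change, HF over LF, of the 23 members by limma, at a very low level. It had 71 reads in all 20 bulls together, at most 5 reads in an HF bull and at most 11 in an LF bull. Its normalized counts were 0, 1.76 and 6.13 in HF bulls and 0, 3.42 and 9.91 in LF bulls, and it was at 0 in 2 bulls of each group. The groups overlapped, and 8 of 10 HF bulls lay below the LF median. The log2 fold change on the log2(normalized count + 1) scale was -0.59 (SE 0.48, 95% confidence interval -1.59 to 0.40, unadjusted p = 0.23, adjusted p = 0.942 by limma). On the reads, edgeR's likelihood ratio test gave a log2 fold change of -0.97 with an unadjusted p of 0.0475 and an adjusted p of 0.96, which made it the only member past the thresholds there, with 12 of 435 miRNAs, 2.76%, past them in all. The quasi-likelihood test gave an unadjusted p of 0.0735 and DESeq2 of 0.0656, so that the call depended on the test.

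bta-miR-494 was called only where miRNAs of low count were not removed. It had 13 reads in all, read in 1 of 10 HF bulls (2 reads) and 5 of 10 LF bulls (at most 4 reads each). In that fit its log2 fold change was -0.75 (SE 0.30, unadjusted p = 0.0199, adjusted p = 0.91 by limma), and it was the only one of 46 members past the thresholds, with 15 of 731 miRNAs, 2.05%, past them in all. A share of 1 in 46 is close to that background.

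**Figure D4:**
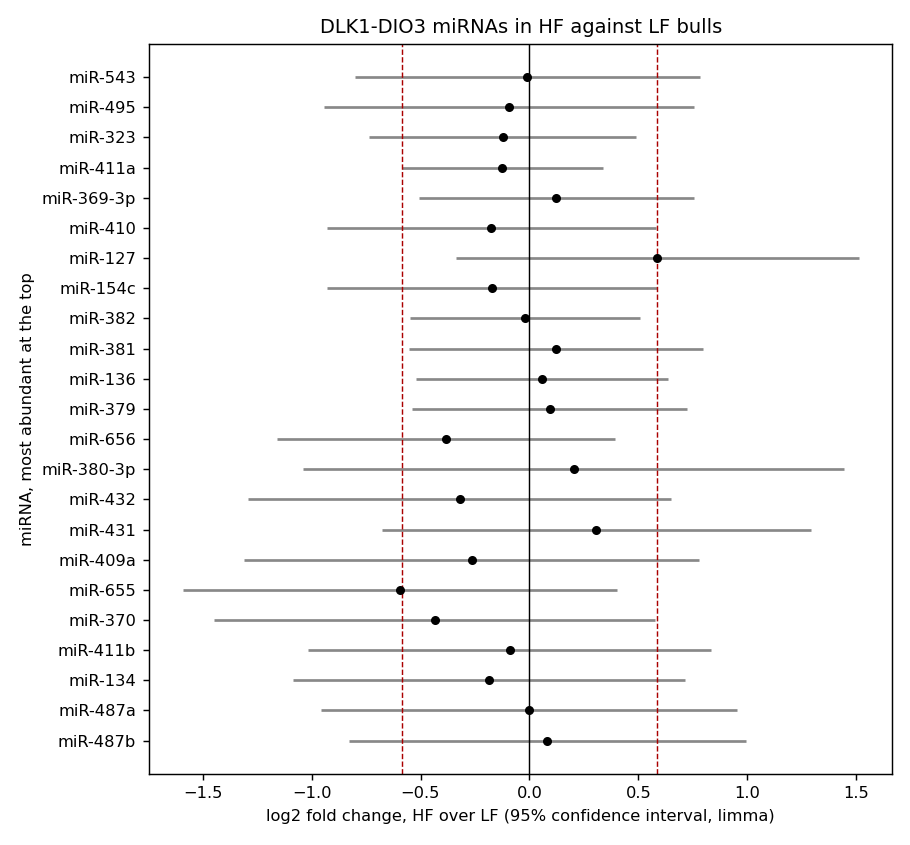
Log2 fold change, HF over LF, of the 23 members that passed the filter, most abundant at the top, with 95% confidence intervals from limma (n = 10 bulls per group). The dashed lines mark a fold change of 1.5 in either direction and the solid line no change. All 23 intervals span 0, and the points run from -0.59 for bta-miR-655 to 0.59 for bta-miR-127.

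From bull to bull, the levels of the abundant members varied together. Across the 20 bulls, log2 levels of bta-miR-543 and bta-miR-495 had a Pearson's r of 0.85 and a Spearman's rho of 0.84 (permutation p = 1e-05, the smallest that 100000 resamples can give, and p = 2e-05, adjusted p = 6e-05 and 0.00012 over 6 pairs). Within HF bulls r was 0.84 and within LF bulls 0.94, and without the 2 bulls farthest from the median of bta-miR-543 it was 0.88. bta-miR-543 and bta-miR-495 are neighbours along the locus. bta-miR-323 correlated with bta-miR-543 (r = 0.81, rho = 0.75, permutation p = 3e-05 and 0.00022, adjusted p = 6e-05 and 0.00044) and with bta-miR-495 (r = 0.80, rho = 0.76, permutation p = 2e-05 and 0.00017, adjusted p = 6e-05 and 0.00044). Without the 2 farthest bulls these values of r were 0.71 and 0.73. Within HF bulls they were 0.89 and 0.84, and within LF bulls both were 0.78.

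bta-miR-411a followed the others less closely. Its correlation with bta-miR-323 was r = 0.73 and rho = 0.66 (permutation p = 0.00018 and 0.0017, adjusted p = 0.00027 and 0.0025), 0.46 within HF bulls, 0.87 within LF bulls and 0.75 without the 2 farthest bulls. With bta-miR-495 it was r = 0.59 and rho = 0.46 (permutation p = 0.0062 and 0.041, adjusted p = 0.0074 and 0.049), 0.34 within HF bulls and 0.70 within LF bulls. This relation rests on LF replicates 1 and 4, without which r was 0.38 (adjusted permutation p = 0.14). With bta-miR-543 it was r = 0.44 and rho = 0.42 (permutation p = 0.052 and 0.065), which did not pass the test. The 2 values of a bull share a library and its scaling. Of the 6 pairs, 5 passed after adjustment.

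The same held, as a description, over the 14 members that passed the filter with a mean of at least 10. The median r over their 91 pairs was 0.46 and 90 of the 91 were positive, with 41 pairs, 45.1%, above 0.5. Over all pairs of the 311 miRNAs that passed the filter with a mean of at least 10, members included, the median was 0.014, with 7.76% above 0.5. Centring the values within HF and within LF gave a median of 0.48 for the members. Within HF bulls the median was 0.27 and within LF bulls 0.65, a difference that was not tested. Of the 91 pairs, 68 were positive within HF bulls and 90 within LF bulls. Above 0.5 lay 23.1% of them within HF bulls, against 13.5% of all pairs, and 70.3% within LF bulls, against 14.0%. Without LF replicates 1 and 4 the median was 0.33 and 82 pairs were positive, with 20.9% of the pairs above 0.5, against 8.96% of all pairs.

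**Figure D5:**
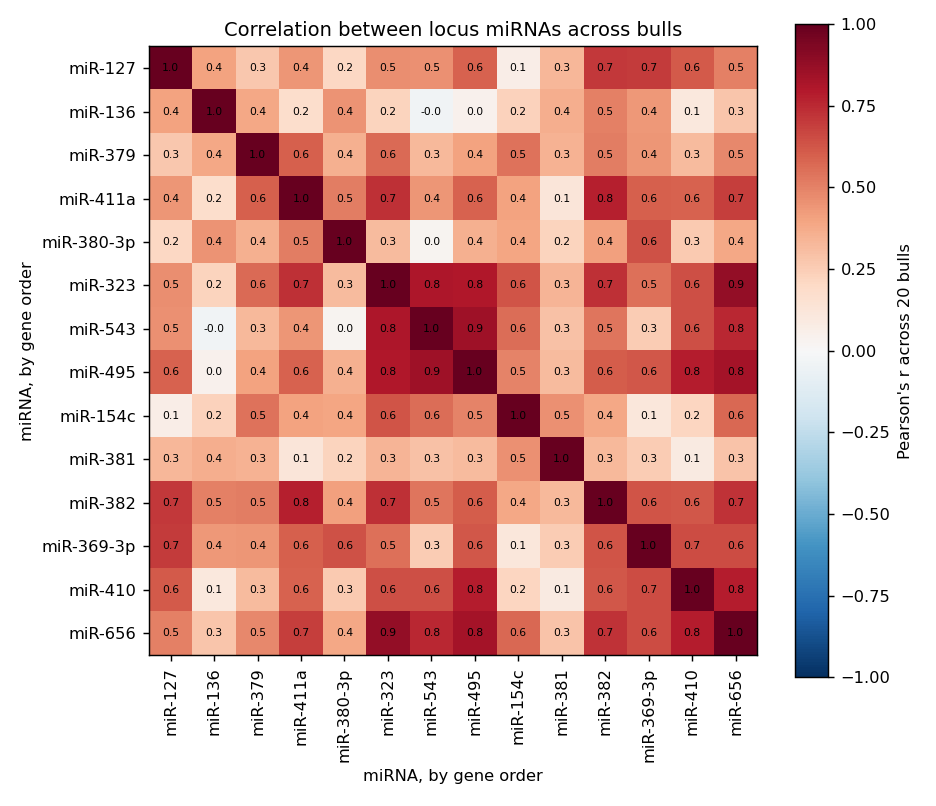
Pearson's r between the log2 levels of the 14 members with a mean of at least 10 across the 20 bulls, in gene order, from blue at -1 to red at 1. Almost all fields are red, with 90 of 91 pairs above 0, and bta-miR-323, bta-miR-543, bta-miR-495 and bta-miR-656 form the darkest fields, whereas bta-miR-136 and bta-miR-381 are paler.

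Some bulls were high or low for most of the 14 members, and others were mixed. LF replicate 1 lay above the median of the 20 bulls in 14 of the 14 members and among the top 5 bulls in all of them. LF replicate 4 lay above it in 13 and among the top 5 in 12, and HF replicate 10 above it in 13. At the other end, LF replicate 7 lay above the median in 0 of 14 members, and LF replicate 8 and HF replicate 9 in 1 each. Bulls of both fertility groups were thus found at both ends. Among the mixed bulls, HF replicate 6 was in the top 5 for 5 members and in the bottom 5 for 4. LF replicate 13 was in the top 5 for 3 members and in the bottom 5 for 4. The median coefficient of variation over bulls was 55.7% for the 14 members and 37.1% for the 311 miRNAs, a difference that was not tested. These sets were not matched for level, so the values cannot show whether the locus varied more than other miRNAs of its level. The means of the 14 members ran from 11.2 to 317, whereas the highest mean of any miRNA measured was 403777.

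For each of the 4 most abundant members, the 434 other miRNAs that passed the filter were ranked by Pearson's r over the 20 bulls. Members of the locus made up 23 of the 435 miRNAs that passed. For bta-miR-543, 5 of the nearest 10 were members, for bta-miR-495 7, for bta-miR-323 8 and for bta-miR-411a 7. bta-miR-656, from the last of the 58 genes in order, had the highest r with bta-miR-323 (0.88). bta-miR-3956, whose gene lies within the cluster but which is not on the member list, was among the nearest 10 of bta-miR-543 (r = 0.59) and of bta-miR-495 (r = 0.75). Not all near miRNAs belonged to the locus, since bta-miR-139 was among the nearest 10 of 3 of these 4 members (r = 0.76, 0.73 and 0.62), and bta-miR-196a also of 3 (r = 0.69, 0.68 and 0.64).

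The cells were checked against marker miRNAs. Those of sperm and the germ line (bta-miR-34b, bta-miR-34c, bta-miR-449a and bta-miR-449b) summed to between 25819 and 77170 normalized counts per bull. All 6 epithelial markers (the miR-200 family, bta-miR-141, bta-miR-429 and bta-miR-205) were also read, at between 6544 and 15554. Sums of other lists were lower, at 51.2 to 301 for 6 blood markers, 102 to 1984 for 5 muscle markers, 73.5 to 647 for 5 markers of endothelium and stroma, 2008 to 4066 for 4 markers of nervous tissue and 27.8 to 298 for bta-miR-202 of Sertoli cells. Every marker on these lists was read in some bull. The filter removed bta-miR-144, bta-miR-145, bta-miR-214 and bta-miR-219. Of the markers left, 0 passed both thresholds between HF and LF bulls (limma), with 9 of 435 miRNAs, 2.07%, past them in all. All 6 epithelial markers had a log2 fold change below 0, HF over LF, from -0.47 to -0.23, with an unadjusted p of 0.0135 for bta-miR-429 and 0.0402 for bta-miR-200a and an adjusted p of 0.942 for both (limma), at folds under 1.5. In LF replicates 1 and 4, where the locus was highest, the sperm markers summed to 32287 and 34767, in the lower part of their range. The muscle markers summed to 239 and 1984, the latter the highest of any bull, with 1872 of it from bta-miR-143 alone. The stromal markers summed to 278 and 431.2, the nervous markers to 3280 and 3011, and the epithelial markers to 10644 and 10289. The part of other cells in the level of the locus was not tested.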

How the data were processed

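Small RNA libraries of spermatozoa from 20 bulls, 10 HF and 10 LF as the labels group them, were used. Per the methods of the study, the authors trimmed adapters with Cutadapt, kept short reads, removed other short RNA species, and used miRDeep2 and Bowtie to count reads on mature miRNAs from miRBase (ARS-UCD1.2 with the Y chromosome). The deposited table is described as counts, but holds a normalized signal, CPM divided by a TMM factor. Dividing each value by that of a single read gave whole reads, within 0.01 reads, for 95.0% of the values above 0, including all values of the members. Depth is the sum of these reads.

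The members and all lists were chosen with earlier results of these data known. A miRNA was left out where 10 or more bulls had a value under 1. The groups were compared with limma 3.58.1 (variance trend, R 4.3.3) on log2(value + 1), a scale that understates the change of low miRNAs, with HF over LF and Benjamini-Hochberg adjustment over 435 miRNAs, at an unadjusted p under 0.05 and a fold change over 1.5. The reads, rounded, were also tested with edgeR 4.0.16 and DESeq2 1.42.0. Correlations were tested by two-sided permutation (scipy 1.17.1, 100000 resamples). All scripts that fit models were tested on simulated data. Other pseudocounts, filters, scalings and sets of bulls were tried. Named with full values are the 10 most abundant members, those with an unadjusted p under 0.05 by limma or the likelihood ratio test, bta-miR-655 and the arm pairs, and bta-miR-494, bta-miR-3956, bta-miR-139 and bta-miR-196a were named after their values were seen. No mature sequences and no genome of the files' build were used here.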

Additional observations from a re-analysis of the deposited data

Results flagged for a closer look

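In 26 groups of 10 bulls (the 12 named members and the share of the locus, in HF and in LF), the gap between the extreme bull and its nearest neighbour was set against the group's range, and compared with the 95% critical value of Dixon's test. For normally distributed values, chance alone passes it in about 1 in 20 groups, or 1.3 of these, and 3 were found, all in LF bulls. The values were not log-transformed and the members varied together over bulls, so the number found cannot be read against that rate. bta-miR-323 in LF replicate 1 had a normalized count of 497 (552 reads), with the next LF bull at 273 and a gap of 0.527 of the range. bta-miR-127 in LF replicate 4 had 259 (261 reads), with the next at 105 and a gap of 0.62 of the range. bta-miR-382 in LF replicate 4 had 79.3 (80 reads), with the next at 45.1 and a gap of 0.562 of the range. LF replicates 1 and 4 had 1265430 and 935989 reads, near the median depth of 1092881, and the highest shares of the locus.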

How the results depend on the processing

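The count of members past the thresholds was 0, and 1 without the filter (bta-miR-494) and in edgeR's likelihood ratio test (bta-miR-655). On leaving out single bulls it ran from 0 to 1, with 1 of 23 members without LF replicate 4 (bta-miR-127). In that fit 9 of 442 miRNAs were past the thresholds in all. Over the fits without a bull, the median log2 fold change of the members ran from -0.17 to 0.072. The likelihood ratio test, the quasi-likelihood test, DESeq2 and the bulls with at least 500000 reads gave, in this order, log2 fold changes of the opposite sign of 0.046, 0.050, 0.015 and 0.056 for bta-miR-543, -0.024, -0.035, -0.054 and -0.091 for bta-miR-369-3p, and -0.046, -0.095, -0.074 and -0.31 for bta-miR-380-3p, and the deeper bulls -0.037 for bta-miR-381. Without single bulls the value ran from -0.13 to 0.27 for bta-miR-543, -0.28 to 0.081 for bta-miR-495, -0.25 to 0.057 for bta-miR-323, -0.36 to 0.035 for bta-miR-410, -0.098 to 0.13 for bta-miR-382, -0.011 to 0.24 for bta-miR-381 and -0.13 to 0.56 for bta-miR-380-3p. Of the 119 other values of the 12 named members, 105 kept their direction without a call, 13 reversed and 1 was called, and of 240 without a bull, 215, 24 and 1. The causes were not tested. With at least 3 reads in place of 1, the median number of detected members was 17.5 in HF and 19.5 in LF bulls. Leaving out LF replicates 1 and 4, chosen after seeing the data, gave r = 0.38 for bta-miR-495 with bta-miR-411a and a median pairwise r of 0.33. No paired analysis was possible because HF and LF bulls share no replicate number in the labels.

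The 30 members that did not pass the filter had at most 8 reads in a library. In HF replicate 17, bta-miR-410, bta-miR-154c and bta-miR-380-3p rest on 3 reads each, bta-miR-379 on 2 and bta-miR-656 on 1. How much of the spread between bulls is counting error was not tested.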

Other observations

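Other miRNAs of the locus, its flanks and other imprinted loci were read as well. The normalized count of bta-miR-3956 averaged 19.4 ± 19.6 in HF and 18.7 ± 19.2 in LF bulls (SD, n = 10 each), and that of bta-miR-323b-3p 3.85 ± 3.04 and 5.87 ± 6.61. bta-miR-342, on the same chromosome outside the imprinted domain, had 230 ± 96.1 in HF and 227 ± 110 in LF bulls. Of the miRNAs of other imprinted loci, bta-miR-335, within the MEST gene, was the most abundant, at 1493 ± 303 in HF and 1399 ± 355 in LF bulls, and bta-miR-296-5p of the GNAS locus had 634 ± 187 and 634 ± 251. Both exceeded bta-miR-543 in mean level. Of the 3 miRNAs of other imprinted loci that passed the filter, 0 were past the thresholds (limma), with 9 of 435 miRNAs, 2.07%, past them in all. The log2 fold changes of the 3 ran from -0.27 to 0.10, and bta-miR-675 and bta-miR-298 were not analysed here.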
